A study of Mus musculus with 20 samples.

Results

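Fkbp5 and Per1 are textbook target genes of the glucocorticoid receptor (GR), and the chromatin around them was described here in 3T3-L1 preadipocytes induced to become adipocytes. The peaks were chosen by position alone. They were all peaks of 19 lists that overlapped, by at least 1 bp, a window on mouse build mm9: chromosome 17 from 28480000 to 28750000 for Fkbp5 (270 kb), and chromosome 11 from 68850000 to 68970000 for Per1 (120 kb). The windows held 262 of the 284878 peaks in all lists, 140 around Fkbp5 and 122 around Per1. Of these, 7 were GR peaks, 5 in the Fkbp5 window and 2 in the Per1 window.

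GR is a receptor that waits in the cytoplasm bound to heat shock chaperones, moves to the nucleus when it binds a glucocorticoid such as dexamethasone, and there binds DNA next to other factors. Fkbp5 encodes FKBP51, a cochaperone of that same chaperone complex which lowers the affinity of the receptor for its hormone and so forms a short negative feedback loop. Per1 encodes Period 1, a repressor of the circadian clock whose transcription also answers to glucocorticoids and to cyclic AMP. The factors profiled with GR were C/EBPbeta and C/EBPdelta (leucine zipper factors of early adipogenesis), Stat5a (a factor activated by cytokine and growth hormone signals), RXR (the dimer partner of many nuclear receptors) and PPARgamma (the receptor that directs the adipocyte state).

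3T3-L1 is a clonal mouse fibroblast line. All cells were grown in calf serum and were past confluence. Those of day 0 had no inducer, and those of 2 hours and later had received dexamethasone, insulin, 3-isobutyl-1-methylxanthine (which raises cyclic AMP) and fetal bovine serum. From day 2 the labels list insulin and fetal bovine serum, and later fetal bovine serum alone. Open chromatin was mapped as DNase I hypersensitive sites (DHS) on day 0, at 2 hours, at 4 hours and on days 1, 2 and 6. Chromatin immunoprecipitation covered GR, Stat5a and RXR at 4 hours, C/EBPbeta on day 0, at 2 hours, at 4 hours and on day 2, C/EBPdelta and RNA polymerase II (RNA Pol II) at 4 hours and on day 0, and PPARgamma on days 6 and 2. Each group was 1 library, so no difference could be set against replicate spread and no test was made. GR was analysed at 4 hours only.

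The promoter sequences are shown because the RNA Pol II peaks listed in the windows around these genes differed between 4 hours and day 0. The sequences run from 250 bases before to 50 after each annotated start. They come from RefSeq on build GRCm38.p6, whose positions do not match those of the mm9 peaks. Both genes matched, Fkbp5 with 1 start and Per1 with 2. In that annotation Fkbp5 lies on the minus strand between Tulp1 and Armc12, and Per1 on the plus strand between Vamp2 and Hes7. Capitals mark matches, on both strands, to 5 short motifs given with the sequences.
Fkbp5 promoter (chr17:28486100-28486399, minus strand): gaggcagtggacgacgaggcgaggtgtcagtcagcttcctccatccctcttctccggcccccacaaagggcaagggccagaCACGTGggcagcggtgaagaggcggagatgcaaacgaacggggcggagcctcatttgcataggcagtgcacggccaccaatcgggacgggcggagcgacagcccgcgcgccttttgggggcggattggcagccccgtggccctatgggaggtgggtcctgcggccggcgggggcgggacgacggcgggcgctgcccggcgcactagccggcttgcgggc
Per1 promoter 1 (chr11:69098699-69098998, plus strand): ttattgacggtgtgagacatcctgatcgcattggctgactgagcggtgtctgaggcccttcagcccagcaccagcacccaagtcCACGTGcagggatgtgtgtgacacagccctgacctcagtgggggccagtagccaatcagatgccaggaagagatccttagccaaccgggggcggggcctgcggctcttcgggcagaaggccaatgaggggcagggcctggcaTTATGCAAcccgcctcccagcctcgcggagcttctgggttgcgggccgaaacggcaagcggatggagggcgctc
Per1 promoter 2 (chr11:69099902-69100201, plus strand): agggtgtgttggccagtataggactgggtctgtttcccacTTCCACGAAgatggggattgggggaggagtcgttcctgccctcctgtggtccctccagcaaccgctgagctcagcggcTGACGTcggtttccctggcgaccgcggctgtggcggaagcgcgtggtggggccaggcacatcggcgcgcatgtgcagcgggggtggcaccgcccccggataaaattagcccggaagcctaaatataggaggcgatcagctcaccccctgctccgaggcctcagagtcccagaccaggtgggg

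The E-box CACGTG, the element of the clock activators, was found at position 82 of the Fkbp5 promoter and at position 85 of Per1 promoter 1, counted from 1 at the 5′ end. It is present in 7.15% of all 32851 promoter windows of 300 bases. Per1 promoter 1 also held TTGCNNAA, a C/EBP-type site, on its other strand at position 227 (10.8% of all promoters hold it). Per1 promoter 2 held TGACGT, the core of the cyclic AMP response element, at position 119 (7.51% of all promoters). It also held TTCNNNGAA, a Stat-type site, at position 41 (8.3% of all promoters). TGTTCT, the hexamer of the glucocorticoid response element, was found in 19.0% of all promoters and in none of these 3 windows. No matches overlapped. These are matches of letters only, and no mm9 annotation was used to place the gene starts among the peaks.

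GR was bound at 5 places around Fkbp5. GR peak 1 spanned 28550729 to 28551772 on chromosome 17 (1044 bp). GR peak 2 spanned 28556870 to 28557847 (978 bp). GR peak 3 spanned 28561220 to 28561858 (639 bp). These 3 stood within 11130 bp of each other. GR peak 4, at 28586142 to 28586653 (512 bp), lay 24283 bp from GR peak 3. GR peak 5, at 28682361 to 28683127 (767 bp), lay a further 95707 bp away. Peaks 1 and 2 were among the wider ones: 7.16% and 10.8% of all 4080 GR peaks were at least as wide, against a median width of 721 bp over the list. Peak 4 was narrow, with 95.8% of GR peaks at least as wide.

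Around Per1, GR was bound at 2 neighbouring places. GR peak 1 spanned 68910165 to 68910948 on chromosome 11 (784 bp). GR peak 2 spanned 68912465 to 68913308 (844 bp), 1516 bp farther on. Over all GR peaks the median gap to the nearest other GR peak was 47031 bp, and 17.5% had a neighbour closer than 6000 bp, which holds for both Per1 peaks and for Fkbp5 peaks 1 to 3. When all chromosomes were cut into tiles as wide as each window, 1.16% of 9790 tiles held at least 5 GR peaks, as the Fkbp5 window did. Of 22019 narrower tiles, 3.85% held at least 2, as the Per1 window did. The tiles give the background of the list and are no test, since the windows were placed on these genes.

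**Figure D1:**
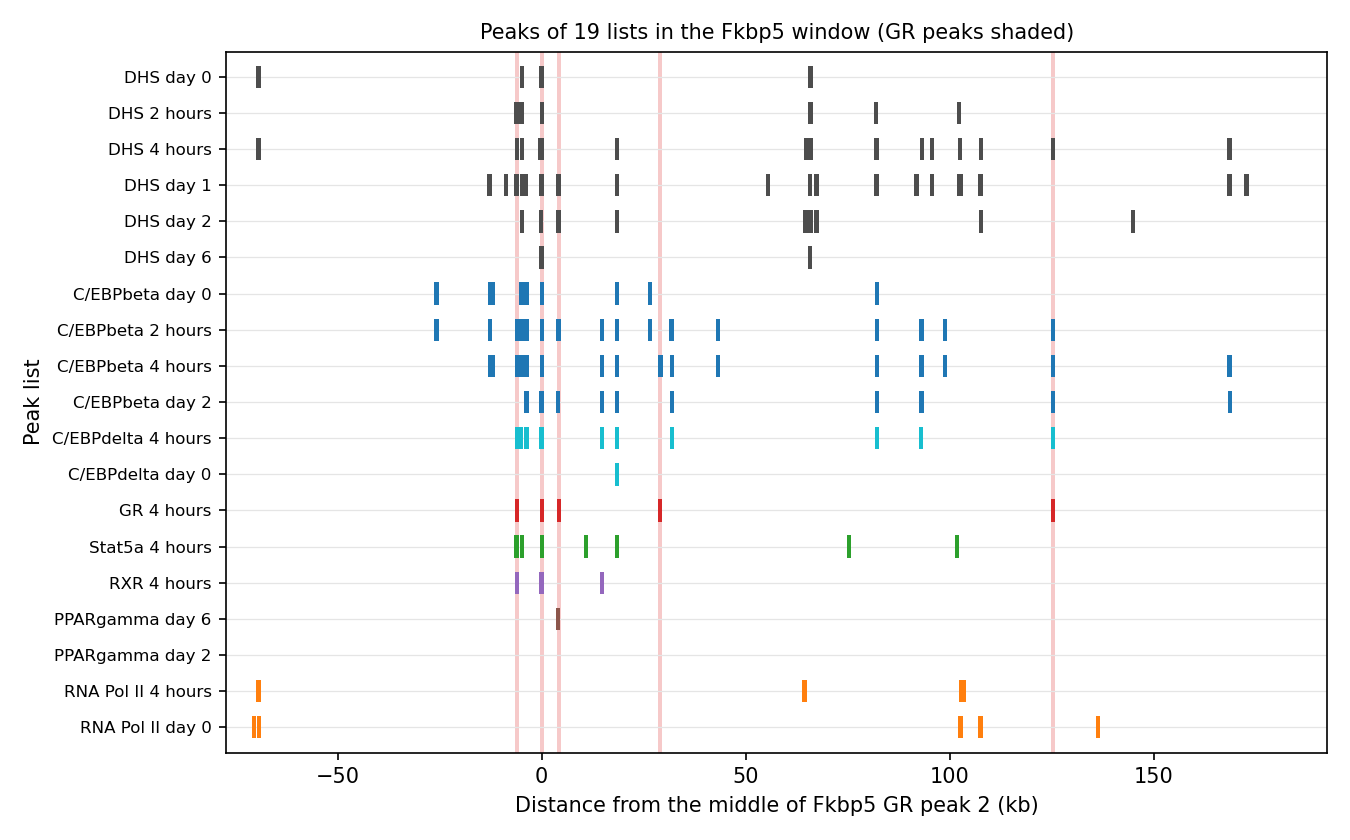
Peaks of the 19 lists in the Fkbp5 window, by distance in kb from the middle of GR peak 2 (horizontal axis), with 1 list per row and the 5 GR peaks shaded; narrow peaks are drawn at a minimum width so that they can be seen. GR peaks 1, 2 and 3 crowd into 11130 bp, where C/EBP, Stat5a, RXR and DHS peaks crowd as well, while the RNA Pol II peaks lie elsewhere.

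The 7 GR peaks fell into kinds that differed in their partners at 4 hours. Fkbp5 GR peaks 1 and 2 held all 4 partners (C/EBPbeta, C/EBPdelta, Stat5a and RXR), as did 23.0% of all GR peaks. Fkbp5 GR peak 5 held both C/EBPs alone, and so did Per1 GR peak 2; this set of partners was found at 25.9% of all GR peaks. Fkbp5 GR peak 4 held C/EBPbeta alone, as did 7.01% of all GR peaks. Fkbp5 GR peak 3 and Per1 GR peak 1 held none of the 4, a class of 5.66% of all GR peaks. C/EBPbeta lay at 5 of the 7 peaks, against 91.7% of all GR peaks, and C/EBPdelta at 4, against 81.1%. Stat5a and RXR lay at 2 each, against 53.7% and 30.5% of all GR peaks. With 7 peaks these counts are a description of the loci.

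At the 4-partner sites the peaks sat nearly on top of each other. At Fkbp5 GR peak 1, the middles of the partner peaks lay 54 bp (C/EBPbeta), 94 bp (C/EBPdelta), 84 bp (Stat5a) and 35 bp (RXR) from the middle of the GR peak. At Fkbp5 GR peak 2 these distances were 34 bp, 39 bp, 66 bp and 81 bp in the same order. The medians over all GR peaks with each partner were 49 bp, 55 bp, 55 bp and 64 bp. All 8 distances were therefore of the usual size.

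Per1 GR peak 2 was offset from its partners. The C/EBPbeta peak there had its middle 482 bp from that of GR, and 0.401% of the 3740 GR peaks with C/EBPbeta had a middle distance as large or larger. C/EBPbeta covered 35.9% of this GR peak. The C/EBPdelta peak met it by 11 bp, or 1.3% of its length, with the middles 580 bp apart. Calling the C/EBPs partners at this site thus rests on the edges of peaks. When 50% of the shorter peak had to be shared, or every peak was set to 200 bp, C/EBPbeta lay at 4 and C/EBPdelta at 3 of the 7 GR peaks, and this site lost both.

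**Figure D2:**
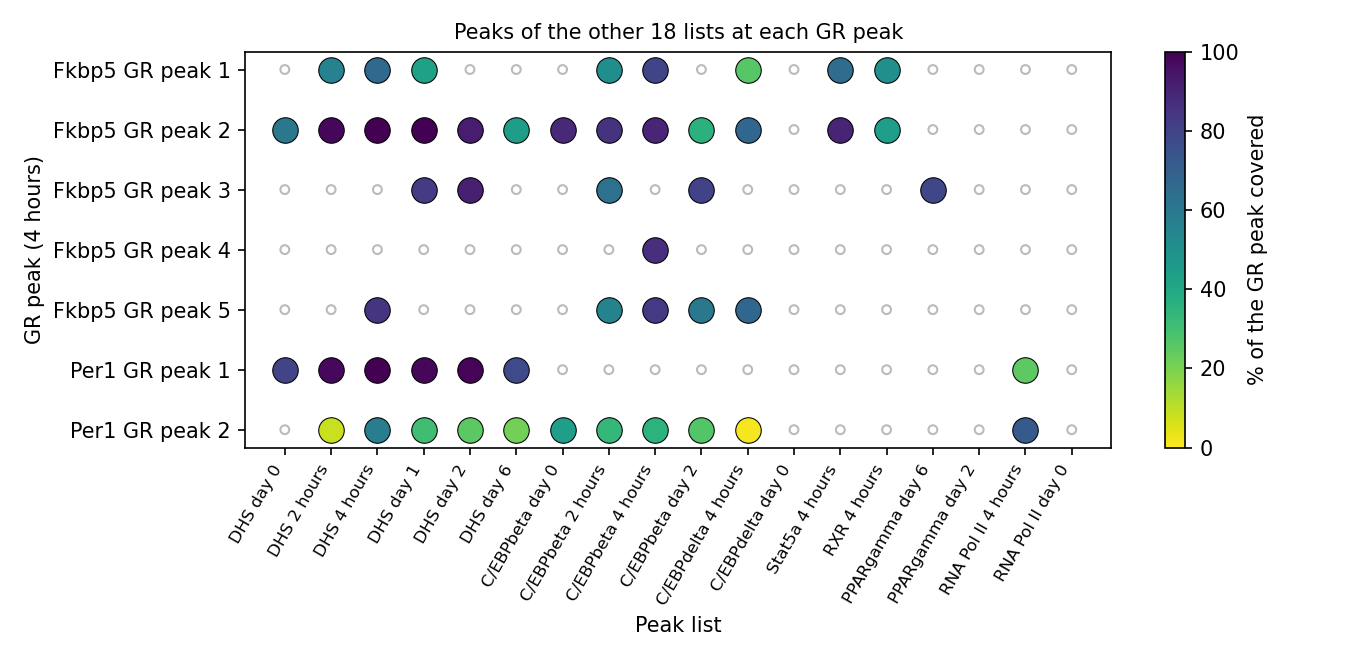
The 7 GR peaks (rows) against the other 18 lists (columns); a large dot means that the list has a peak overlapping the GR peak, its colour gives the percentage of the GR peak covered, and a small open circle means no overlap. Fkbp5 GR peak 2 has the most lists, Fkbp5 GR peak 4 has C/EBPbeta of 4 hours alone, and both Per1 GR peaks have RNA Pol II of 4 hours but not of day 0.

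C/EBPbeta lists of other times were read at the same sites. On day 0, C/EBPbeta was listed at Fkbp5 GR peak 2 and at Per1 GR peak 2, that is at 2 of 7 (57.5% of all GR peaks). Only 1 of them was left when 50% of the shorter peak had to be shared, or when every peak was set to 200 bp. The share over all GR peaks was not computed at these settings. At 2 hours C/EBPbeta was at 5 of 7 (80.6%), with Fkbp5 GR peaks 1, 3 and 5 added. Fkbp5 GR peak 3 carried C/EBPbeta at 2 hours and on day 2 but not at 4 hours. On day 2, C/EBPbeta was at 4 of the 7 peaks (69.0%). C/EBPdelta of day 0 was at none of them (16.2% of all GR peaks).

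Open chromatin at the GR sites ranged from constant to not listed. Counting the 7 GR peaks in the DHS lists gave 2 on day 0, 4 at 2 hours, 5 at 4 hours, 5 on day 1, 4 on day 2 and 3 on day 6. The shares of all 4080 GR peaks were 15.0%, 46.7%, 75.9%, 76.2%, 57.8% and 15.2% at these times. The lists differ in length (from 9055 peaks at 2 hours to 35389 on day 1), and when only the 9055 widest peaks of each were kept the counts were 2, 4, 3, 2, 3 and 3. The shares over all GR peaks were computed with the full lists only. The 2 hours list had 9055 peaks and the day 0 list 9989. When 50% of the shorter peak had to be shared, or every peak was set to 200 bp, the counts were 3 at 2 hours and 2 on day 0. With a gap of up to 500 bp they were 4 and 3. Keeping only the widest peaks lowered the counts of 4 hours, day 1 and day 2, and it left the 2 hours list whole. Whether list length accounts for these differences was not tested.

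Site by site, Fkbp5 GR peak 2 and Per1 GR peak 1 were in all 6 DHS lists, as were 7.92% of all GR peaks. The first is the site with all 4 partners and C/EBPbeta at all 4 times, and the second has none of the 4 partners. Fkbp5 GR peak 1 was in the DHS lists of 2 hours, 4 hours and day 1 and in no other, a pattern shared by 7.01% of all GR peaks. Fkbp5 GR peak 5 was in the 4 hours list alone (5.83%). Fkbp5 GR peak 3 was in the lists of day 1 and day 2 alone (3.85%), both later than the time at which GR was mapped. Fkbp5 GR peak 4 was in no DHS list, as were 12.9% of all GR peaks.

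Per1 GR peak 2 was in every DHS list except that of day 0, a pattern of 4.61% of all GR peaks. Its DHS peaks lay on its flanks. At 4 hours 1 DHS peak ran from 68912017 to 68912853 and another from 68913208 to 68913786, so that together they covered 58.1% of the GR peak and left its centre between them. At 2 hours the pair of DHS peaks at this site covered 8.53% of the GR peak, and on day 6 the one DHS peak left covered 21.4%. With every peak set to 200 bp around its middle, the GR peaks in the 4 hours DHS list numbered 4.

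**Figure D3:**
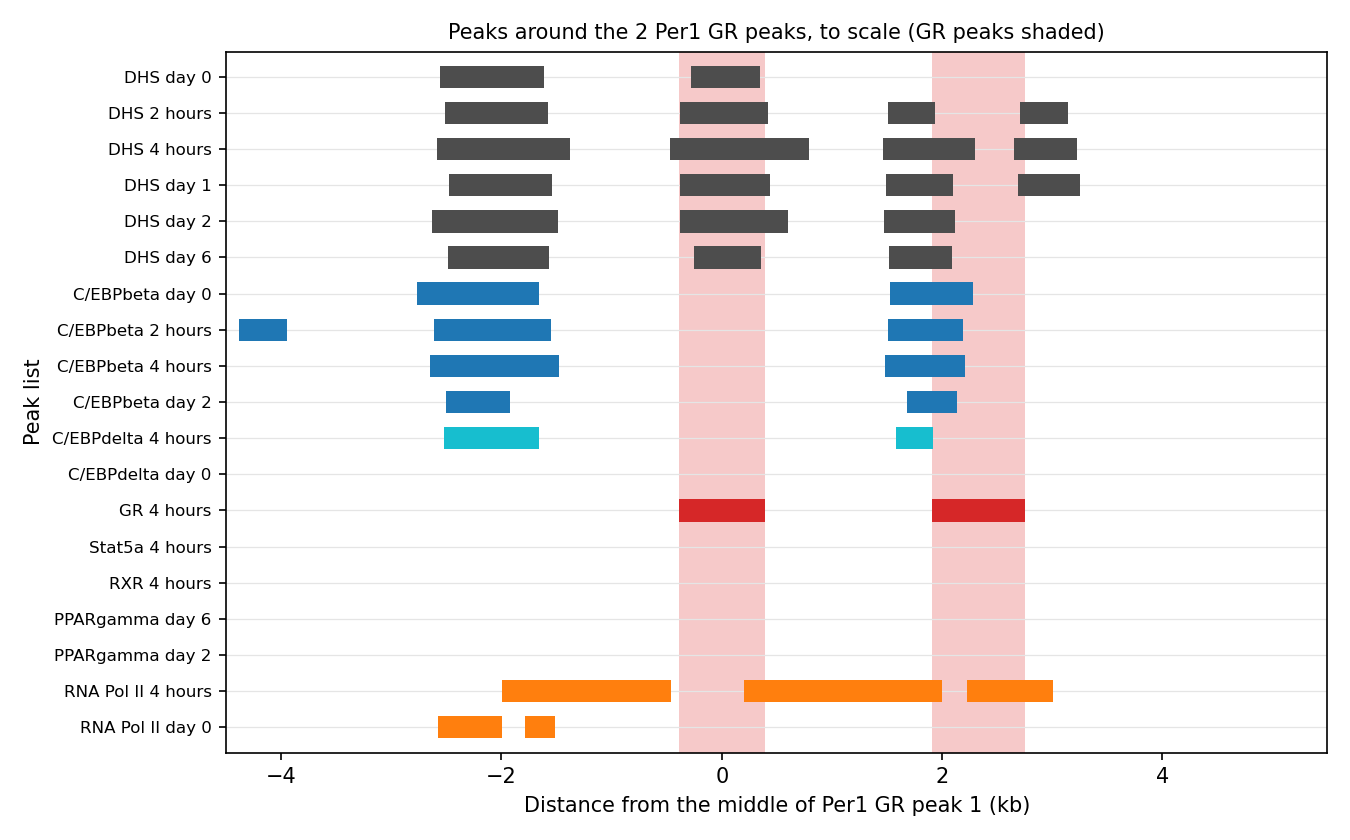
Peaks around the 2 Per1 GR peaks (shaded), drawn to scale by distance in kb from the middle of GR peak 1, with 1 list per row. The DHS and C/EBPbeta peaks lie beside GR peak 2 rather than on its centre, and the 3 RNA Pol II peaks of 4 hours cover 4101 bp of a stretch where the 2 peaks of day 0 cover 854 bp.

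RNA Pol II covered more of the Per1 stretch at 4 hours than on day 0. Within 3 kb of the Per1 GR peaks (9144 bp in all), RNA Pol II covered 4101 bp in 3 peaks at 4 hours and 854 bp in 2 peaks on day 0. The 3 kb flank was not among the planned results and was not varied, and no such length was computed over all GR peaks. The peaks of 4 hours ran from 68908565 to 68910094, from 68910755 to 68912552 and from 68912788 to 68913560. Those of day 0 ran from 68907976 to 68908560 and from 68908773 to 68909041. Both lists thus had RNA Pol II over a DHS region of all 6 times at 68907926 to 68909181, which also held C/EBPbeta at all 4 times. Within that region, the day 0 peak from 68907976 to 68908560 (585 bp) met no RNA Pol II peak of 4 hours. Beyond the region, the list of 4 hours alone had peaks that overlapped the GR peaks.

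RNA Pol II of 4 hours overlapped both Per1 GR peaks, whereas RNA Pol II of day 0 overlapped neither. Of all GR peaks, 5.25% met RNA Pol II of 4 hours and 3.28% met RNA Pol II of day 0. It covered 24.7% of Per1 GR peak 1 and 72.2% of Per1 GR peak 2 at 4 hours. The overlap depends on peak edges: when 50% of the shorter peak had to be shared, 1 of the 7 GR peaks met RNA Pol II of 4 hours, and with every peak set to 200 bp none did. The shares over all GR peaks were not computed at these settings.

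Around Fkbp5, 0 of the 5 GR peaks met RNA Pol II of either time. Few GR peaks did anywhere: 5.25% of all GR peaks at 4 hours and 3.28% on day 0. The 1 RNA Pol II region found at 4 hours and not on day 0 ran from 28621279 to 28622222 (944 bp). It lay 34625 bp from the nearest GR peak. It overlapped a DHS region (28621632 to 28622437) listed at 4 hours and on day 2 only, and beside it, at 28622838 to 28623541, was a DHS region listed at all 6 times. A second stretch was longer at 4 hours: RNA Pol II covered 1941 bp from 28659544 to 28661484, against 705 bp on day 0 in the same place. In that place the day 0 peak ran from 28659666 to 28660370. Another stretch was listed at both times, from 28487706 to 28488193 at 4 hours and from 28487719 to 28488394 on day 0. The 4 hours list lacked 3 regions of day 0. They lay at 28486729 to 28486979 (251 bp), at 28664689 to 28665209 (521 bp) and at 28693643 to 28693964 (322 bp). The median width over the whole day 0 list was 513 bp. No RNA Pol II peak of either time lay within 3 kb of a Fkbp5 GR peak, and the share within 3 kb was not computed over all GR peaks.

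Farther from the Per1 GR peaks, RNA Pol II was listed from 68883873 to 68884476 at 4 hours and from 68883900 to 68884472 on day 0. Day 0 alone also had peaks here, at 68872704 to 68873194, at 68875695 to 68876226 and at 68937986 to 68938403. Summed over each window, RNA Pol II covered 3373 bp in 3 peaks at 4 hours and 2475 bp in 5 peaks on day 0 around Fkbp5. Around Per1 it covered 6283 bp in 5 peaks at 4 hours and 4154 bp in 7 peaks on day 0. The covered length was thus 1.36-fold and 1.51-fold that of day 0, while the whole lists covered 8.13 Mb at 4 hours and 8.83 Mb on day 0, a ratio of 0.92. The Per1 difference was smaller when that window was widened by 50 kb on each side (6283 bp at 4 hours and 5217 bp on day 0). By union region, the list of 4 hours alone held 1 of 6 RNA Pol II regions around Fkbp5 and 2 of 9 around Per1 (23.3% of 18710 regions over all chromosomes). The list of day 0 alone held 3 and 4 of them (35.2%). The windows also hold other genes, and which gene a given RNA Pol II peak belongs to was not assigned.

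DHS peaks of both windows were followed over time. Around Fkbp5 there were 4 DHS peaks on day 0, 6 at 2 hours, 14 at 4 hours, 19 on day 1, 9 on day 2 and 2 on day 6. Around Per1 the numbers were 10, 13, 16, 19, 10 and 11. The list of 4 hours was 3.18-fold as long as that of day 0, and the windows held 3.5-fold (Fkbp5) and 1.6-fold (Per1) as many DHS peaks at 4 hours as on day 0. When only the 9055 widest peaks of each list were kept, the Fkbp5 window held 4, 6, 4, 3, 5 and 2 peaks and the Per1 window 8, 13, 10, 8, 7 and 10. The Per1 window was dense at all 6 times. Of tiles as wide, 0.0363% held at least 10 DHS peaks on day 0, and 0.0454% held at least 16 at 4 hours. At the other times the share with at least as many peaks ran from 0.0136% (day 1) to 0.377% (day 2). For the Fkbp5 window these shares were 8.64% on day 0 and 2.34% at 4 hours.

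Merged over the 6 times, the Fkbp5 window held 23 DHS regions and the Per1 window 17. At 4 hours and not on day 0, 10 of the 23 and 7 of the 17 were listed, against 47.2% of 46760 DHS regions over all chromosomes. No region of either window was in the day 0 list and missing at 4 hours (1.29% over all chromosomes). Listed at all 6 times were 2 Fkbp5 regions and 5 Per1 regions (8.76% over all chromosomes). Of the 10 regions listed at 4 hours and not on day 0 around Fkbp5, 3 were listed at 2 hours, 7 on day 1, 3 on day 2 and 0 on day 6. Of the 7 such regions around Per1, 5 were listed at 2 hours, 6 on day 1, 3 on day 2 and 2 on day 6. Over all 22073 such regions these shares were 15.1% at 2 hours, 68.3% on day 1, 41.6% on day 2 and 14.2% on day 6. The regions that held GR were 28550914 to 28551607, 28556566 to 28557947, 28561097 to 28561803 and 28682397 to 28683046 around Fkbp5. Around Per1 they were 68910083 to 68911344, 68912017 to 68912853 and 68913208 to 68913809. With DHS lists of equal length, 2 regions around Fkbp5 and 3 around Per1 were listed at 4 hours and not on day 0. No share over all chromosomes was computed at that setting. In the full lists, C/EBPbeta of 4 hours was in 6 of the 10 and in 2 of the 7, against 47.5% of all such regions. GR was in 2 of each, against 11.2%. Around Per1, both of these regions met the same GR peak, GR peak 2.

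**Figure D4:**
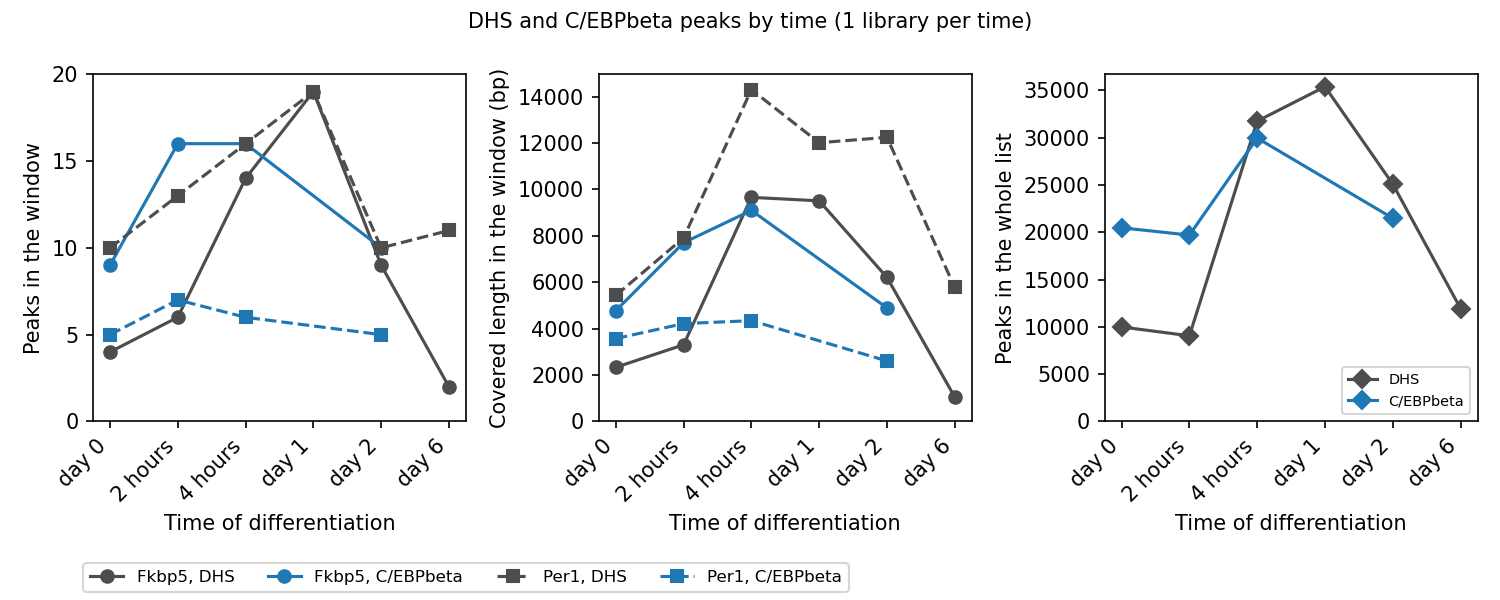
DHS and C/EBPbeta peaks by time in the Fkbp5 and Per1 windows, as the number of peaks (left), the covered length in bp (centre) and, for scale, the number of peaks in the whole list (right); each point is 1 library. The DHS counts of both windows are highest on day 1 (19 each), when the whole list is longest too, and the Fkbp5 C/EBPbeta count is 16 at 2 hours, when the whole list is no longer than on day 0.

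C/EBPbeta was listed at more places around Fkbp5 by 2 hours. The Fkbp5 window held 9 C/EBPbeta peaks on day 0, 16 at 2 hours, 16 at 4 hours and 10 on day 2. Of tiles as wide, 4.69%, 0.204%, 1.43% and 3.24% held at least as many at these times. The whole list had 19703 peaks at 2 hours and 20471 on day 0. The Per1 window held 5, 7, 6 and 5 peaks at the 4 times. Of tiles as wide as that window, 4.57%, 1.18%, 6.34% and 4.95% held at least as many. The C/EBPbeta window counts were not varied. Merged over the 4 times, 4 of 19 Fkbp5 regions and 4 of 8 Per1 regions were bound at all of them, against 22.5% of 41360 regions over all chromosomes. C/EBPdelta had 10 peaks around Fkbp5 at 4 hours and 1 on day 0, and 3 around Per1 at 4 hours and 1 on day 0. The whole C/EBPdelta list was 7.1-fold as long at 4 hours (18327 peaks) as on day 0 (2581 peaks), and both window ratios rest on 1 peak of day 0. All 10 and all 3 C/EBPdelta peaks of 4 hours overlapped C/EBPbeta of 4 hours, as did 83.6% of that list.

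Stat5a had 7 peaks in the Fkbp5 window, and 0.878% of tiles as wide held at least as many. Of the 7 Stat5a peaks, 2 overlapped GR, against 31.6% of all 6977 Stat5a peaks. C/EBPbeta of 4 hours was overlapped by 4, against 64.8%. The 2 with GR were at 28550827 to 28551507 and at 28556967 to 28557882. Those without C/EBPbeta (28568053 to 28568303, 28632408 to 28632851 and 28658923 to 28659343) met none of the other 4 factors of 4 hours, as did 30.5% of all Stat5a peaks. The 2 Stat5a peaks with C/EBPs and no GR were at 28552203 to 28552842 and at 28575403 to 28576105. At the second of these C/EBPdelta was also listed on day 0, at 28575552 to 28576043. RXR had 3 peaks, the 2 at GR peaks 1 and 2 (28551025 to 28551546 and 28557062 to 28557493) and 1 without GR at 28572029 to 28572371, which held both C/EBPs and was in no DHS list. Of all 2076 RXR peaks, 60.4% overlapped GR. At least 3 RXR peaks were held by 1.29% of tiles as wide as the Fkbp5 window. RXR had no peak in the Per1 window, and tiles as wide as that window held a median of 0 and a mean of 0.0944 RXR peaks.

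**Figure D5:**
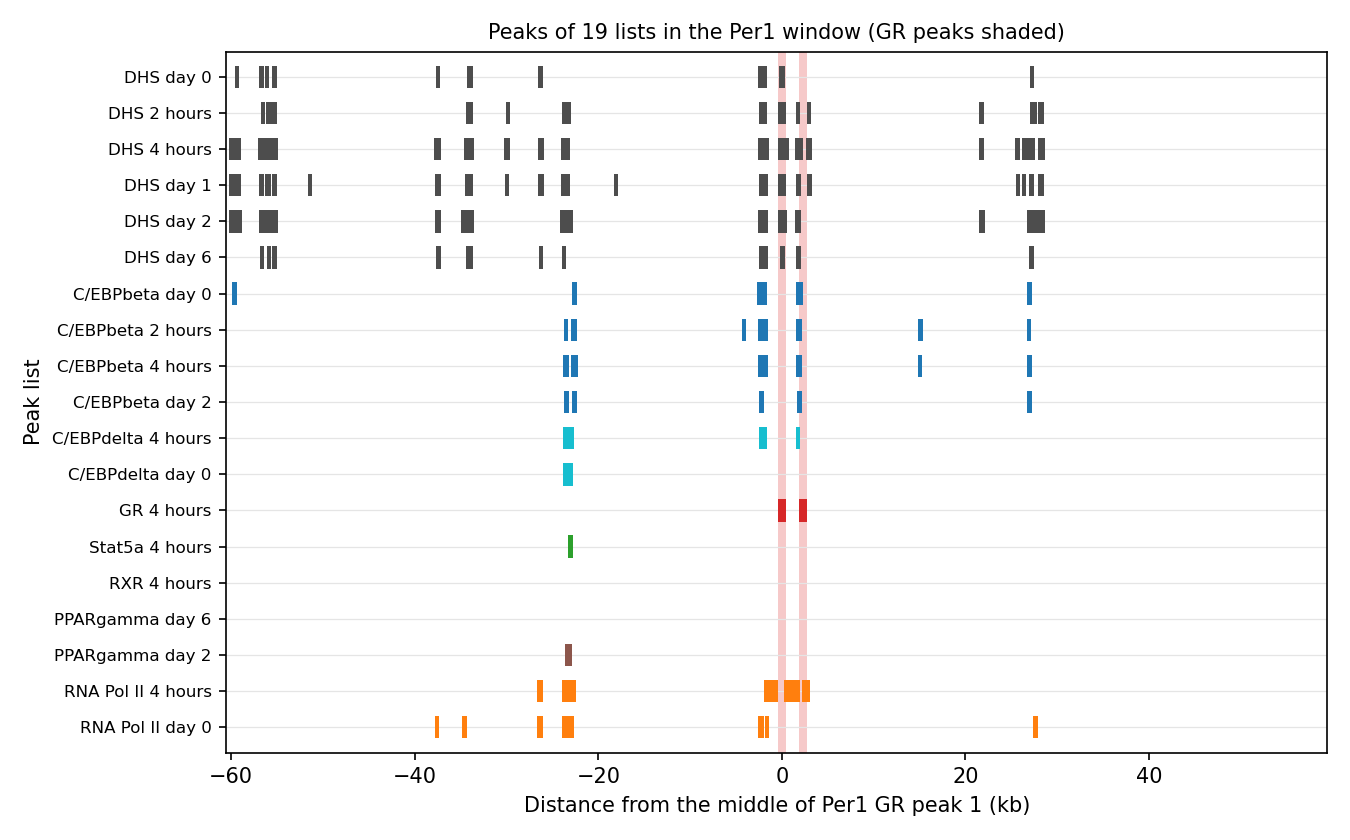
Peaks of the 19 lists in the Per1 window, by distance in kb from the middle of GR peak 1 (horizontal axis), with 1 list per row and the 2 GR peaks shaded; narrow peaks are drawn at a minimum width so that they can be seen. The GR peaks stand side by side, and the PPARgamma peak of day 2, the Stat5a peak and the C/EBPdelta peak of day 0 stand together about 22 kb to the left.

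Of the 9 RNA Pol II regions in the Per1 window, the one that met the most lists held no GR. RNA Pol II covered 1578 bp there at 4 hours, from 68886587 to 68888164, and 1286 bp on day 0, from 68886606 to 68887891, and the stretch overlapped peaks of 15 of the 19 lists. Among these were the 1 Stat5a peak of the window (68887298 to 68887825), C/EBPdelta of 4 hours and of day 0, C/EBPbeta at all 4 times, PPARgamma of day 2 (68886945 to 68887701) and the DHS lists of every time except day 0. It lies 22000 bp from Per1 GR peak 1, and nothing in the lists assigns it to a gene.

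PPARgamma was listed at 1 of the 7 GR sites. Its day 6 peak at 28561055 to 28561722 covered 78.7% of Fkbp5 GR peak 3, the site without partners at 4 hours, which was in the DHS lists of day 1 and day 2 and held C/EBPbeta on day 2. That DHS region was not in the day 6 list. Over all GR peaks, 13.4% met PPARgamma of day 6 and 14.0% met PPARgamma of day 2, which was at 0 of the 7. No other PPARgamma peak lay in the Fkbp5 window, and the Per1 window held the 1 day 2 peak named above and none of day 6. The exact 95% intervals of the shares over all GR peaks reached at most 1.55 percentage points to either side of their own middle. They cover counting over peaks only.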

How the data were processed

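Peak lists were used as the authors deposited them, 1 per sample (6 DHS-seq and 13 ChIP-seq samples). Each line gives a chromosome, a start and an end in base pairs, on mm9 per the submitters' processing notes, with no score, height or count. The aligner, peak caller, threshold and depth are not given in the sources used here. The input sample was not analysed here. List lengths are given because depth is unknown, and why the lists differ in length was not tested. An absent peak does not show absence of binding or of open chromatin. Positions are printed counted from 1.

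Peaks were counted as shared at an overlap of at least 1 bp, and overlapping peaks were merged into union regions. Background shares are over all GR peaks, all regions or all tiles, with Clopper-Pearson intervals. They were computed with the full lists and an overlap of at least 1 bp, and not under the alternatives. The windows, members and comparisons were chosen with earlier results of these data known. Peaks named one by one are all GR, Stat5a, RXR, PPARgamma and RNA Pol II peaks of the windows and all DHS regions with GR. Other peaks are given by counts, or by position where they lie at one of these. Alternatives were stricter and looser overlap, peaks of 200 bp, the wider peaks of each list, lists of equal length and other window edges. The overlap and merging steps were tested on planted peaks. No expression was measured, so the cell line was not checked against marker genes. Counting ran in Python 3.11.15 with NumPy 2.4.6, intervals came from SciPy 1.17.1, and plots were drawn with Matplotlib 3.10.9.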

Additional observations from a re-analysis of the deposited data

How the results depend on the processing

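Of 147 alternative values, 116 stayed within 1.5 times the reported count or length and 31 moved beyond it. No paired analysis was possible because each group holds 1 library. The wider peaks of each list only (fewer peaks by construction) gave 3 GR peaks in the Fkbp5 window, and over both windows 1 GR peak with C/EBPdelta, 1 with RXR and 3 in the day 1 DHS list. From day 0 to day 6 they gave 2, 3, 8, 8, 5 and 1 DHS peaks around Fkbp5. Around Per1 they gave 3 DHS peaks on day 0, 7 at 2 hours and 5 on day 6. They left 6 Fkbp5 DHS regions gained (listed at 4 hours and not on day 0) and 0 PPARgamma peaks of day 6. DHS lists of equal length (again fewer peaks) gave 4, 3 and 5 DHS peaks around Fkbp5 and 10, 8 and 7 around Per1 at 4 hours, day 1 and day 2. They left 3 GR peaks in the 4 hours and 2 in the day 1 list, with 2 (Fkbp5) and 3 (Per1) regions gained. A gap of up to 500 bp, which joins regions, gave 4 gained Per1 regions. C/EBPbeta of day 0 lay at 1 GR peak with an overlap of at least 50% or with peaks of 200 bp, and RNA Pol II of 4 hours at 1 and 0 GR peaks (the cause was not tested). Windows widened by 50 kb on each side held no further GR peak, and RNA Pol II around Fkbp5 then covered 8556 bp at 4 hours and 6328 bp on day 0. Around Per1, RNA Pol II then covered 6283 bp at 4 hours and 5217 bp on day 0. The widened windows for RNA Pol II and the alternatives on RNA Pol II at GR peaks were chosen after seeing the data.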
